A study of Mus musculus with 9 samples.

Results

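The 33 genes described here make, sense and move cholesterol and make long-chain fatty acids, and they were chosen by name, as rows of the deposited expression table whose mouse Ensembl identifier maps to a listed symbol. All 33 were found among the 54307 genes of the table, and all 33 passed the filter on low values that 13674 genes passed. Messenger RNA of C2C12 cells, a mouse myoblast line grown in culture, had been sequenced in 9 libraries after 48 h. The libraries came from 3 groups of 3: cells in 25 mmol/L glucose with 200 nmol/L of liraglutide, an acylated glucagon-like peptide-1 analogue (HL group), cells in 25 mmol/L glucose (H group), and control cells (NC group), whose glucose concentration the sources used here do not give. No library of an osmotic control was analysed here, so effects of glucose and of osmolarity cannot be told apart.

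Animal cells build cholesterol from acetyl-CoA through mevalonate, isoprenoids, squalene and lanosterol, and they build fatty acids from the same precursor. The transcription factors SREBP1 (Srebf1) and SREBP2 (Srebf2) control both routes, SREBP2 mainly the sterol genes and SREBP1 mainly the fatty acid genes. When sterols are plentiful, the INSIG proteins hold the SREBPs and their escort SCAP in the endoplasmic reticulum. When sterols are scarce, SREBPs are cut in the Golgi and enter the nucleus, where they act on target promoters together with the CCAAT-binding factor NF-Y. Sterol surplus is sensed by the LXR nuclear receptors, which induce the cholesterol exporter Abca1.

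Values are FPKM, fragment counts scaled by transcript length and by the number of mapped fragments, so that levels of different genes can be compared per length. Fold changes are differences of log2(FPKM + 0.1) between group means, tested with limma in 1 fit of the 9 libraries, with p-values adjusted over all 13674 tested genes. A gene was called at an adjusted p under 0.05 with an absolute log2 fold change over 1, and "rose" and "fell" are kept for such calls. A single gene that passed the adjusted p but not the fold threshold is described as higher or lower at an adjusted p alone. In counts of genes, these words mean that the fold threshold was not applied, so such counts include the called genes. The comparisons H against NC and HL against H share the H libraries, and HL against NC shares libraries with both. In bulk RNA, fewer cells of a type and less RNA per cell cannot be told apart.

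The libraries differed in ways that touch every gene here. FPKM summed to 698627 to 731929 in HL, 649733 to 683362 in H and 757000 to 765681 in NC, and mitochondrially encoded transcripts made up 9.19% to 11.4% of that sum in HL, 7.24% to 9.47% in H and 6.48% to 7.28% in NC. Rescaling to TPM, which sets these sums equal, moved the middle log2 fold change over the tested genes to 0.15, against -0.04 as deposited, in H against NC, and to -0.06, against 0.04, in HL against H. The median SD of log2 values over the 33 genes was 0.0629 in HL, 0.166 in H and 0.0343 in NC. All 7 myoblast markers were expressed, with a summed level of 688 to 709 FPKM in HL, 328 to 478 in H and 461 to 474 in NC. Des weighs most in this sum, and the markers did not all move together. In H against NC, 2 had a positive log2 fold change (Myf5 and Itga7) and 5 a negative one. Of 9 adipocyte markers, 3 reached 1 FPKM in at least 3 libraries (Fabp4, Pparg and Cebpa). Lep was at 0 in all libraries, Adipoq, Plin1, Cidec, Cfd and Retn had group means of at most 0.2 FPKM, and the summed level of the list was 19.7 to 20.5 FPKM in HL, 21.3 to 29.8 in H and 25.1 to 27.4 in NC. Of 9 macrophage markers, 2 reached that level (Csf1r and Cd68), with C1qa, C1qb and Tyrobp at 0, Csf1r at 91.5 to 149 FPKM in H and under 1 FPKM elsewhere, and sums of 19.5 to 20.9 FPKM in HL, 106 to 169 in H and 5.57 to 6.90 in NC. Of 6 fibroblast markers, 2 did so (Pdgfra and Dcn), with sums of 23.98 to 25.3 FPKM in HL, 26.1 to 36.8 in H and 22.9 to 24.4 in NC. The part of these shifts in the results was not tested.

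The promoters of SREBP target genes are the sequences on which SREBPs and NF-Y act. Which of the 33 genes are such targets in these cells was not tested. RefSeq windows from 250 bases before to 50 bases after a transcription start (build GRCm38.p6, matched by symbol) were at hand for 26 of the 33 genes, and were searched on both strands for CCAAT, the box bound by NF-Y, for TCACNCCAC, a sterol response element, and for CACGTG, an E-box. CCAAT was present for 20 of the 26 genes, that is 76.9%, against 41.1% of the 27025 genes with a window. The sterol response element was found for 1 gene, Hmgcs1 (3.85%, against 1.44% of all genes), and the E-box for 6 genes (23.1%, against 8.09%). The 27025 genes were not limited to those that passed the filter on low values, which all 33 genes passed. Shares among expressed genes alone were not computed. By direction in H against NC, CCAAT stood in the windows of 11 of 15 genes that were lower at an adjusted p, 4 of 6 that were higher and 5 of 5 that did not pass. Letters of this kind describe the window and show no binding. Printed here, as examples of either direction, are the windows of Hmgcs1, Mvk and Fasn, which were lower in H, of Hsd17b7, which was higher, and of Abca1, which rose, and capitals mark the matches to the 3 motifs, CCAAT reading ATTGG where it lies on the other strand.
Hmgcs1: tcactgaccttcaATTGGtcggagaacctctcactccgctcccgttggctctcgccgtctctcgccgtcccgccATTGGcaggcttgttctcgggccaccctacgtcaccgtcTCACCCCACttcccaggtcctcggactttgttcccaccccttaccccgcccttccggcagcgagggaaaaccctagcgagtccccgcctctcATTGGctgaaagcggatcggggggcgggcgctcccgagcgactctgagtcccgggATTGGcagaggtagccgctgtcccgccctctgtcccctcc
Mvk: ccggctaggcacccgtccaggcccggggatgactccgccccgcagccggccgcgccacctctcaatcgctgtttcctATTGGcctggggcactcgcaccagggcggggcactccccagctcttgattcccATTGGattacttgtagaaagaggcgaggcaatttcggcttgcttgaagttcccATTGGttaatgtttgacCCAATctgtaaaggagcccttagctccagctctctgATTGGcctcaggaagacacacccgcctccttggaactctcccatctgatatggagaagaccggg
Fasn: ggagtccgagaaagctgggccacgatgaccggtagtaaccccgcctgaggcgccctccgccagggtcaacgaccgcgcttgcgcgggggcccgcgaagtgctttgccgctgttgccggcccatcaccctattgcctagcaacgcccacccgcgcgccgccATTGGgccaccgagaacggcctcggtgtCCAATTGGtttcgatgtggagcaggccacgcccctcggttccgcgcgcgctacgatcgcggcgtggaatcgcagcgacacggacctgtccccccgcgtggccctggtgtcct
Hsd17b7: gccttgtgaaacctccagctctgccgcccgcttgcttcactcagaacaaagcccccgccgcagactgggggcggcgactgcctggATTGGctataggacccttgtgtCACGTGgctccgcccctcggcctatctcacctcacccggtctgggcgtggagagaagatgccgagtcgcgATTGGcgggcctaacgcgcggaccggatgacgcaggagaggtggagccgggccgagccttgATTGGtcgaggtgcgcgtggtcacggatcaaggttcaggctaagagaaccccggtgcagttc
Abca1: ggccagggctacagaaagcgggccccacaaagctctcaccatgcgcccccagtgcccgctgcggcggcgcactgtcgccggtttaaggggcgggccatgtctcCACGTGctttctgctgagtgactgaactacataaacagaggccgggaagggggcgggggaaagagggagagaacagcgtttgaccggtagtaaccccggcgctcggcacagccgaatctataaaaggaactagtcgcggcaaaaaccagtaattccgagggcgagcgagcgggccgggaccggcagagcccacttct
In the order printed, they lie at chr13:119690101-119690400 (plus strand), chr5:114444019-114444318 (plus strand), chr11:120824498-120824797 (minus strand), chr1:169969156-169969455 (minus strand) and chr4:53159846-53160145 (minus strand). The Hmgcs1 window holds 4 CCAAT matches and the sterol response element, which begins at position -137 from the start. Mvk holds 5 CCAAT matches and no sterol response element of these letters. Fasn holds 3 matches, a pair of which overlap on opposite strands. Hsd17b7, a sterol gene that went the other way in H, holds 3 CCAAT matches and an E-box, and Abca1 holds an E-box and no CCAAT.

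Over all 33 genes, the summed level was lower in H than in NC and higher in HL than in H. It was 1778, 1759 and 1771 FPKM in the HL libraries, 1322, 1284 and 1166 in H and 1668, 1667 and 1666 in NC, with every H library under every library of the other groups. Abundant genes weigh most in this sum, Scd2 first. In H against NC, 26 genes passed at an adjusted p alone, 19 as lower and 7 as higher, where 60.1% of the tested genes did so, 33% as lower and 27.1% as higher. After rescaling to TPM these numbers were 15 lower and 11 higher, where 20.9% of the tested genes passed as lower and 38.6% as higher. The median of the 33 genes was below that of the tested genes under both scalings (-0.32 against -0.04 as deposited and -0.13 against 0.15 in TPM). Past the fold threshold, 3 of the 33 were called, 2 that fell and 1 that rose, where 16% of the tested genes were called, 5.75% that fell and 10.3% that rose. In HL against H, 21 genes passed at an adjusted p alone, 20 as higher and 1 as lower, where 48.4% of the tested genes did so, 26.7% as higher and 21.7% as lower. In TPM 15 passed as higher and 5 as lower, where 18.4% of the tested genes passed as higher and 27.6% as lower. Past the fold threshold 1 gene rose, where 9.38% of the tested genes were called, 3.55% that rose and 5.83% that fell. The median of the 33 log2 fold changes was 0.31 there, against 0.04 for the tested genes as a whole, and 0.21 against -0.06 in TPM. In HL against NC, 19 genes passed at an adjusted p alone, 10 as higher and 9 as lower, where 48.8% of the tested genes did so, 21.6% as higher and 27.2% as lower. In TPM 13 passed as higher and 6 as lower, against 27% and 19.4% of the tested genes. Past the fold threshold 1 gene rose there, where 8.72% of the tested genes were called, 6.3% that rose and 2.41% that fell. Complete separation of the 3 libraries of each group was seen for 26 of the 33 genes in H against NC (65.5% of the tested genes), for 23 in HL against H (55.3%) and for 29 in HL against NC (65.8%).

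**Figure D1:**
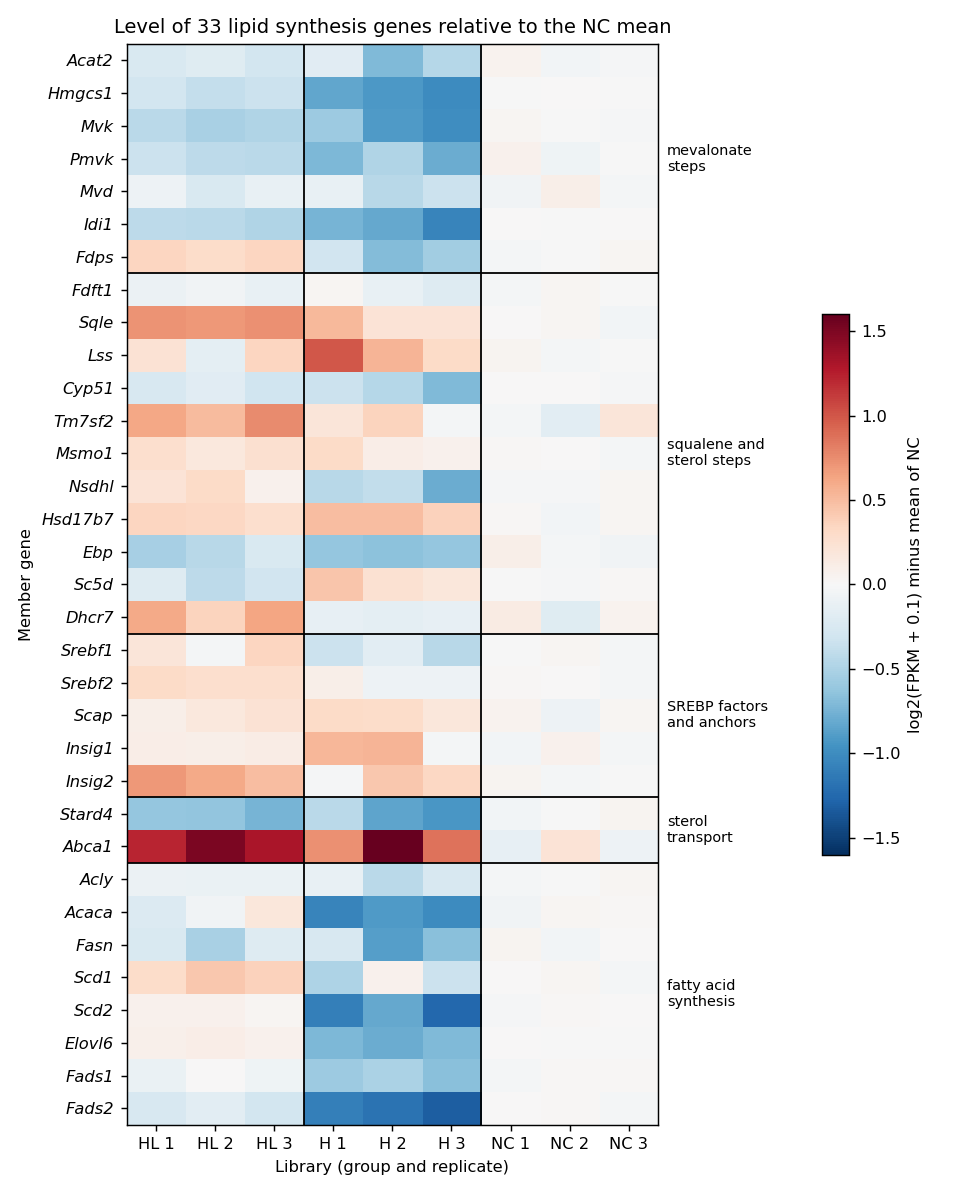
Level of each of the 33 genes (rows, by role) in each of the 9 libraries (columns), as log2(FPKM + 0.1) minus the mean of the 3 NC libraries; blue is lower and red higher than NC. The mevalonate and fatty acid rows are blue in the H libraries, apart from Scd1 in H replicate 2, Abca1 is red in all HL and H libraries, and the squalene and sterol rows are mixed.

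The mevalonate steps were lower in H than in NC throughout. All 7 genes were below NC in all 3 H libraries and were lower at an adjusted p alone, with log2 fold changes from -0.92 (Hmgcs1) to -0.30 (Mvd) and a median of -0.66. In TPM all 7 stayed below 0, with a median of -0.47, and 5 passed. Among all tested genes, 33% were lower as deposited and 20.9% in TPM. In HL against H, 5 of the 7 were higher at an adjusted p alone (26.7% of the tested genes), and 3 in TPM (18.4%). Mvk (limma adjusted p = 0.0509) and Pmvk (0.141) no longer passed in TPM. Hmgcs1, the HMG-CoA synthase, had 55.7, 52.2 and 53.6 FPKM in the HL libraries, 38.3, 35.9 and 33.8 in H and 68.1, 68.3 and 68.2 in NC. Its groups were fully separate, with the H libraries lowest and the HL libraries between H and NC. The log2 fold changes were -0.92 (SE 0.06, limma adjusted p = 1.48e-06) in H against NC, 0.58 (SE 0.06, limma adjusted p = 5.57e-05) in HL against H and -0.34 (SE 0.06, limma adjusted p = 0.00108) in HL against NC. Idi1, the isomerase that makes the reactive isoprene unit dimethylallyl diphosphate, had 39.0, 38.8 and 37.4 FPKM in the HL libraries, 31.0, 29.6 and 25.1 in H and 52.3, 52.1 and 52.3 in NC, in the same order of groups and without overlap. Its log2 fold changes were -0.87 (SE 0.08, limma adjusted p = 1.09e-05) in H against NC and 0.43 (SE 0.08, limma adjusted p = 0.0015) in HL against H, and it was still lower in HL than in NC at an adjusted p alone, with -0.44 (adjusted p = 0.00121) with limma. Mvk and Pmvk, the kinases that phosphorylate mevalonate in succession, followed that order too. Mvk had 14.2, 13.3 and 13.6 FPKM in the HL libraries, 12.7, 10.2 and 9.52 in H and 19.5, 19.0 and 18.9 in NC, with log2 fold changes of -0.83 (adjusted p = 8.85e-05) in H against NC, 0.35 (adjusted p = 0.017) in HL against H and -0.48 (adjusted p = 0.00378) in HL against NC by limma. Pmvk, at 20.6 ± 0.698 FPKM in HL, 17.2 ± 2.04 in H and 27.2 ± 1.31 in NC (SD, n = 3 each), had -0.66 (adjusted p = 0.000138), 0.27 (adjusted p = 0.0292) and -0.40 (adjusted p = 0.00443) in these comparisons by limma, and the value of HL against H passed in 11 of 19 alternative settings. Fdps, the farnesyl diphosphate synthase that feeds both sterols and protein prenylation, stood above NC in the HL group. It had 179, 173 and 180.4 FPKM in the HL libraries, 115, 87.8 and 96.4 in H and 139, 141 and 145 in NC, so that every HL library was above every NC library. The log2 fold changes of Fdps were -0.52 (SE 0.09, limma adjusted p = 0.000641) in H against NC, 0.84 (SE 0.09, limma adjusted p = 6.67e-05) in HL against H and 0.33 (SE 0.09, limma adjusted p = 0.0115) in HL against NC. Acat2, the cytosolic thiolase that joins acetyl-CoA units, and Mvd, the mevalonate diphosphate decarboxylase, showed smaller differences. Acat2 averaged 47.7 ± 1.66 FPKM in HL, 41.9 ± 7.75 in H and 56.5 ± 2.20 in NC (SD, n = 3 each), Mvd 8.95 ± 0.512 FPKM in HL, 8.09 ± 0.977 in H and 9.96 ± 0.561 in NC, and both were lower in H at an adjusted p alone (0.00719 and 0.0242 by limma) but did not pass in TPM (0.0646 and 0.372). Neither passed in HL against H (adjusted p = 0.168 and 0.237 by limma), though both did without H replicate 1 (0.00852 and 0.0446). Summed over the 7 genes, the level was 366, 355 and 360.3 FPKM in HL, 272, 225 and 229 in H and 376, 372 and 377 in NC.

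**Figure D2:**
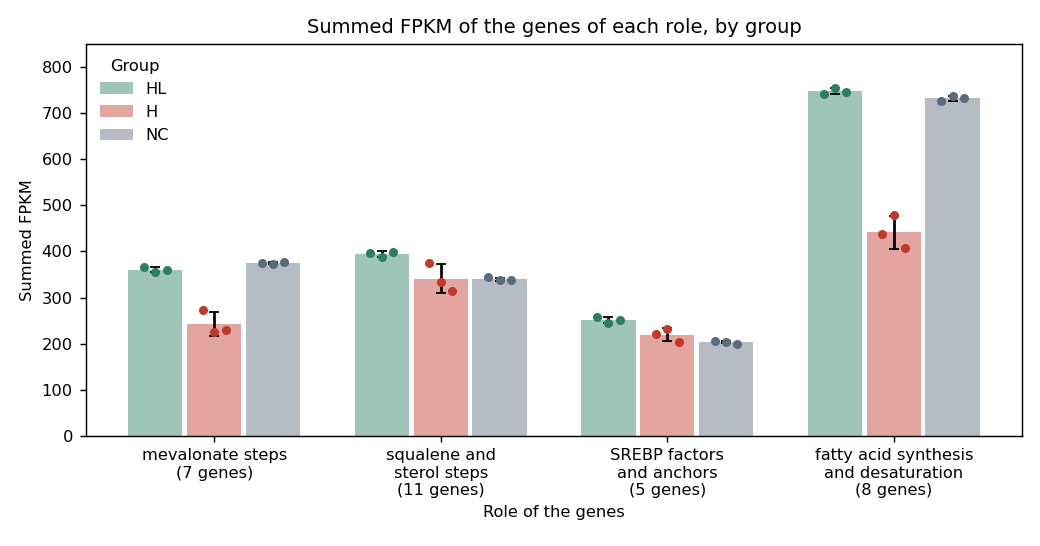
Summed FPKM (vertical axis) of the genes of 4 roles in the HL, H and NC groups; bars are means, error bars SD over 3 libraries and points single libraries. The H bars are lowest for the mevalonate steps (242 FPKM) and for fatty acid synthesis (441 FPKM), while the squalene and sterol steps are close in H (340.5 FPKM) and NC (339.6 FPKM).

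Past farnesyl diphosphate, the steps that lead through squalene and lanosterol to cholesterol did not move as a block. Of 11 genes, 4 were higher in H than in NC at an adjusted p alone (Sqle, Lss, Hsd17b7 and Sc5d), 3 were lower (Cyp51, Nsdhl and Ebp) and 4 did not pass, with a median log2 fold change of 0.16 (6 higher and the same 3 lower in TPM). Among all tested genes, 27.1% were higher and 33% lower in that comparison (38.6% and 20.9% in TPM). Sqle, the squalene epoxidase and a control point of the route, had 117, 115 and 118 FPKM in the HL libraries, 102, 83.0 and 82.9 in H and 71.4, 72.8 and 69.2 in NC. The H libraries lay above NC and the HL libraries above both, with log2 fold changes of 0.32 (SE 0.08, limma adjusted p = 0.00554) in H against NC, 0.40 (SE 0.08, limma adjusted p = 0.00258) in HL against H and 0.72 (SE 0.08, limma adjusted p = 0.000102) in HL against NC. Lss, the synthase that closes the sterol ring system of lanosterol, had 9.47, 7.19 and 10.2 FPKM in the HL libraries, 16.1, 11.8 and 9.93 in H and 8.25, 7.86 and 7.98 in NC. The H libraries were spread widely and all lay above NC, and HL overlapped both. Its log2 fold changes were 0.61 (SE 0.18, limma adjusted p = 0.0142) in H against NC and -0.47 (SE 0.18, limma adjusted p = 0.0525) in HL against H. The value of HL against H passed in TPM (adjusted p = 0.0243) and without HL replicate 3 (0.0474) or H replicate 3 (0.0204). Sc5d, a desaturase close to the end of the route, had 22.9, 19.9 and 21.5 FPKM in the HL libraries, 36.1, 31.5 and 30.2 in H and 26.4, 26.3 and 27.0 in NC, with HL lowest and H highest and no overlap. As deposited, it was the single gene of the set that passed as lower in HL than in H at an adjusted p alone, with -0.60 (SE 0.08, limma adjusted p = 0.000309) on the log2 scale, after 0.29 (SE 0.08, limma adjusted p = 0.0108) in H against NC. In TPM, Lss, Hsd17b7 (limma adjusted p = 0.0211), Scap (0.0364) and Insig1 (0.0466) also passed as lower in HL than in H. Hsd17b7, a keto reductase that acts during removal of the lanosterol methyl groups, averaged 9.59 ± 0.269 FPKM in HL, 10.6 ± 0.513 in H and 7.71 ± 0.184 in NC (SD, n = 3 each), with 0.45 (adjusted p = 0.000396) in H against NC and 0.31 (adjusted p = 0.00493) in HL against NC by limma.

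The 3 sterol genes that were lower in H all act after lanosterol, as do Hsd17b7 and Sc5d, which were higher. Cyp51, the lanosterol demethylase, averaged 35.9 ± 1.65 FPKM in HL, 30.3 ± 3.81 in H and 42.8 ± 0.339 in NC (SD, n = 3 each). Nsdhl, a dehydrogenase of the following demethylation, had 38.3, 40.8 and 34.4 FPKM in the HL libraries, 24.2, 24.9 and 19.0 in H and 32.5, 32.3 and 33.7 in NC, and the H libraries were below all others. Nsdhl had log2 fold changes of -0.54 (SE 0.11, limma adjusted p = 0.0017) in H against NC and 0.74 (SE 0.11, limma adjusted p = 0.000452) in HL against H. Ebp, a sterol isomerase, averaged 25.5 ± 2.64 FPKM in HL, 21.7 ± 0.297 in H and 33.8 ± 1.91 in NC (SD, n = 3 each). Cyp51 and Ebp had log2 fold changes of -0.50 (adjusted p = 0.000827) and -0.63 (adjusted p = 0.00011) in H against NC by limma, and their values in HL against H, with adjusted p = 0.0379 and 0.0414 by limma, passed in only 8 of 19 and 7 of 19 alternative settings. The other 4 genes did not pass in H against NC. Dhcr7, the reductase of the last step, had 29.3, 24.6 and 29.8 FPKM in the HL libraries, 17.5, 17.3 and 17.6 in H and 21.1, 16.8 and 20.0 in NC, so that H and NC overlapped while HL lay above both. It had 0.67 (SE 0.10, limma adjusted p = 0.000621) in HL against H and 0.53 (SE 0.10, limma adjusted p = 0.00216) in HL against NC. Tm7sf2, a sterol reductase of the endoplasmic reticulum, had 12.9, 11.97 and 14.3 FPKM in the HL libraries, 9.56, 10.7 and 8.19 in H and 8.19, 7.45 and 9.61 in NC, again with HL above the others, and log2 fold changes of 0.46 (SE 0.13, limma adjusted p = 0.0143) in HL against H and 0.63 (SE 0.13, limma adjusted p = 0.00294) in HL against NC. Msmo1, a methyl sterol oxidase, and Fdft1, the squalene synthase, differed little. Msmo1 had 67.8, 63.5 and 67.3 FPKM in the HL libraries, 70.0, 60.6 and 59.3 in H and 57.0, 56.8 and 55.2 in NC, with HL and H above NC. It passed in HL against NC (log2 fold change 0.23, limma adjusted p = 0.0185), and in H against NC in TPM (adjusted p = 0.00129) but not as deposited (0.0604 by limma). Fdft1 averaged 30.7 ± 0.701 FPKM in HL, 30.7 ± 2.59 in H and 32.7 ± 0.734 in NC (SD, n = 3 each), and passed in no comparison (adjusted p = 0.24, 0.973 and 0.279 by limma in H against NC, HL against H and HL against NC), except in H against NC without H replicate 1 (adjusted p = 0.027).

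**Figure D3:**
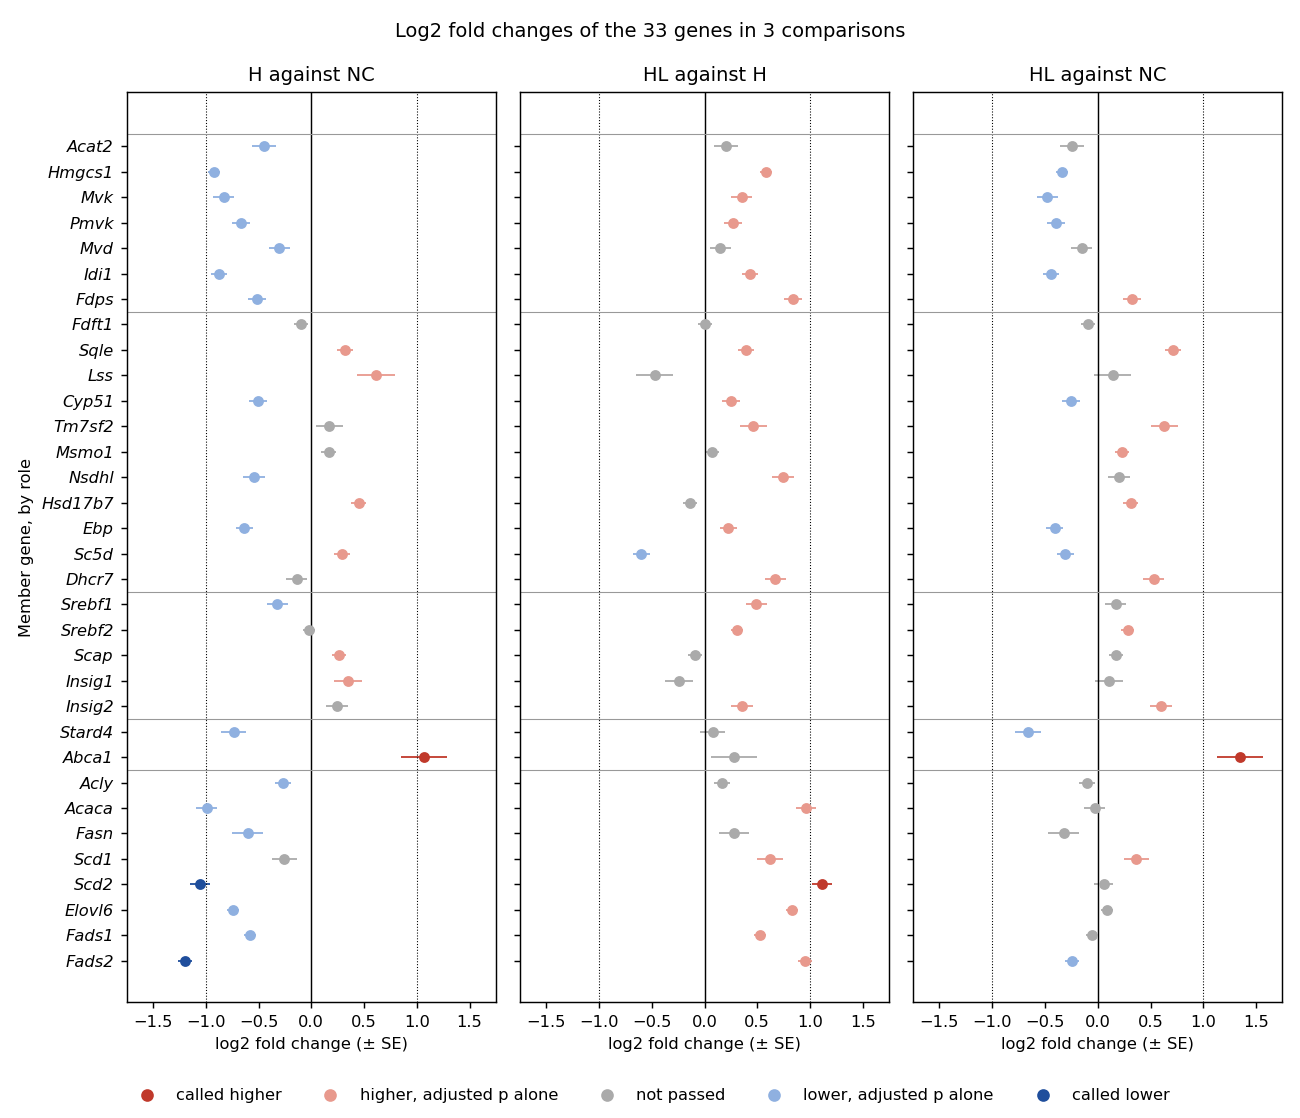
Log2 fold changes (horizontal axis, on log2(FPKM + 0.1), with standard errors) of the 33 genes, by role from top to bottom, in H against NC, HL against H and HL against NC; dotted lines mark a log2 fold change of 1 in either direction, and dark colours mark genes past both thresholds. In H against NC, Scd2 (-1.06) and Fads2 (-1.20) lie past the lower line and Abca1 (1.07) past the upper one, and in HL against H only Scd2 (1.11) does.

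The SREBP factors and their anchors had log2 fold changes of -0.32 to 0.35 in H against NC, -0.24 to 0.49 in HL against H and 0.11 to 0.60 in HL against NC, and none of the 5 was called. Srebf2 had 82.2, 79.7 and 80.0 FPKM in the HL libraries, 71.0, 62.5 and 62.4 in H and 67.3, 66.7 and 64.9 in NC. H and NC overlapped and HL was above both, with log2 fold changes of -0.02 (adjusted p = 0.735) in H against NC, 0.31 (adjusted p = 0.00235) in HL against H and 0.28 (adjusted p = 0.00349) in HL against NC by limma, and in TPM the value of H against NC turned to 0.17 (adjusted p = 0.0287). Srebf1 had 37.3, 31.7 and 41.3 FPKM in the HL libraries, 25.5, 28.9 and 23.9 in H and 32.4, 33.2 and 31.9 in NC. It was below NC in all H libraries, overlapped NC in HL, and had -0.32 (SE 0.10, limma adjusted p = 0.0212) in H against NC and 0.49 (SE 0.10, limma adjusted p = 0.00363) in HL against H, and the value of H against NC passed in 13 of 19 alternative settings. Insig2, an INSIG that is less dependent on SREBP than Insig1, had 76.6, 72.2 and 67.0 FPKM in the HL libraries, 46.8, 63.8 and 59.5 in H and 48.9, 46.2 and 47.0 in NC, with HL above H and NC. Insig2 had log2 fold changes of 0.35 (SE 0.11, limma adjusted p = 0.0215) in HL against H and 0.60 (SE 0.11, limma adjusted p = 0.0015) in HL against NC, and H against NC passed in TPM (adjusted p = 0.00896) and without H replicate 1 (adjusted p = 0.00135). Insig1, an INSIG that is itself an SREBP target, had 37.7, 37.4 and 37.9 FPKM in the HL libraries, 50.8, 51.0 and 34.4 in H and 34.1, 36.6 and 34.3 in NC. H replicates 1 and 2 stood above all NC libraries and H replicate 3 among them, and its adjusted p of 0.0456 by limma in H against NC was kept under 0.05 in 9 of 19 alternative settings. HL against H passed for Insig1, as lower in HL, in TPM (adjusted p = 0.0466) and without H replicate 3 (adjusted p = 0.000545 by limma, against 0.158 with it). Scap averaged 24.2 ± 1.15 FPKM in HL, 25.8 ± 1.29 in H and 21.5 ± 1.12 in NC (SD, n = 3 each) and was higher in H than in NC at an adjusted p alone (log2 fold change 0.26, limma adjusted p = 0.00808).

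Of the sterol transporters, 1 was called. Abca1, which exports cholesterol to apolipoproteins, had 4.97, 6.10 and 5.30 FPKM in the HL libraries, 3.50, 6.56 and 3.88 in H and 1.89, 2.43 and 1.95 in NC. All HL and H libraries were above all NC libraries, while HL and H overlapped. Abca1 rose in H against NC with a log2 fold change of 1.07 (SE 0.22, limma adjusted p = 0.00237) and in HL against NC with 1.35 (SE 0.22, limma adjusted p = 0.000994), and had 0.28 (SE 0.22, limma adjusted p = 0.325) in HL against H. The call in H against NC ended at a pseudocount of 1 (0.83) and without H replicate 2 (0.80), without which HL against H passed (adjusted p = 0.0138 by limma). Stard4, a soluble protein that carries sterols between membranes and an SREBP target, went the other way. It had 10.3, 10.2 and 9.42 FPKM in the HL libraries, 11.7, 8.72 and 8.22 in H and 15.4, 15.7 and 16.2 in NC, with HL and H below NC. Stard4 had log2 fold changes of -0.74 (SE 0.12, limma adjusted p = 0.000609) in H against NC, -0.66 (SE 0.12, limma adjusted p = 0.00181) in HL against NC and 0.08 (SE 0.12, limma adjusted p = 0.629) in HL against H, and HL against H passed without H replicate 1 (adjusted p = 0.0274).

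Fatty acid synthesis and desaturation held the largest log2 fold change of the set in H against NC (Fads2) and in HL against H (Scd2). All 8 genes had negative log2 fold changes in H against NC, with a median of -0.67 (-0.48 in TPM, where all 8 also stayed below 0), and 7 were lower at an adjusted p alone (6 in TPM). Among all tested genes, 33% were lower there (20.9% in TPM). In HL against H all 8 were positive, with a median of 0.72 (0.63 in TPM), and 6 passed under both scalings, where 26.7% of the tested genes passed as higher (18.4% in TPM). Scd2, a stearoyl-CoA desaturase that makes monounsaturated fatty acids and by level per length the most abundant gene of the set, had 331, 330.1 and 321 FPKM in the HL libraries, 148, 178 and 132 in H and 309.9, 318 and 317 in NC. The H libraries were far below the others and the HL libraries slightly above NC. Scd2 fell in H against NC with a log2 fold change of -1.06 (SE 0.09, limma adjusted p = 1.12e-05), a call that missed the fold threshold in TPM (-0.86) and without H replicate 3 (-0.96). It rose in HL against H with 1.11 (SE 0.09, limma adjusted p = 2.25e-05), and HL against NC did not pass (log2 fold change 0.06, limma adjusted p = 0.64). Fads2, the delta-6 desaturase of polyunsaturated fatty acids, had 59.2, 63.1 and 57.8 FPKM in the HL libraries, 33.2, 31.3 and 28.4 in H and 71.4, 71.9 and 69.6 in NC, without overlap and with HL between H and NC. Fads2 fell in H against NC with -1.20 (SE 0.07, limma adjusted p = 7.87e-07), and had 0.96 (SE 0.07, limma adjusted p = 8.5e-06) in HL against H and -0.24 (SE 0.07, limma adjusted p = 0.0137) in HL against NC. Without H replicate 1 the value of HL against H passed the fold threshold (1.01). Fads1, the delta-5 desaturase that acts after Fads2, averaged 55.7 ± 2.19 FPKM in HL, 38.8 ± 2.18 in H and 58.0 ± 1.19 in NC (SD, n = 3 each), with -0.58 (adjusted p = 2.47e-05) in H against NC and 0.52 (adjusted p = 0.000104) in HL against H by limma. Elovl6, the elongase of saturated chains, had 17.4, 17.7 and 17.3 FPKM in the HL libraries, 9.98, 9.44 and 9.99 in H and 16.5, 16.4 and 16.4 in NC, with replicates close together. Its log2 fold changes were -0.74 (SE 0.06, limma adjusted p = 4.93e-06) in H against NC and 0.83 (SE 0.06, limma adjusted p = 8.16e-06) in HL against H, and HL against NC did not pass (log2 fold change 0.09, limma adjusted p = 0.231).

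Acaca, the acetyl-CoA carboxylase that commits acetyl-CoA to fatty acids, had 21.6, 24.2 and 28.6 FPKM in the HL libraries, 12.02, 13.3 and 12.5 in H and 24.2, 25.7 and 25.5 in NC. The H libraries were below all others and HL overlapped NC. Its log2 fold changes of -0.99 (SE 0.10, limma adjusted p = 2.57e-05) in H against NC and 0.96 (SE 0.10, limma adjusted p = 6.92e-05) in HL against H were just short of the fold threshold, which the value of H against NC passed without H replicate 2 (-1.03) or NC replicate 1 (-1.02) and that of HL against H without HL replicate 1 (1.05) or H replicate 2 (1.001). Fasn, the fatty acid synthase, had 54.2, 44.9 and 55.9 FPKM in the HL libraries, 53.9, 34.8 and 40.6 in H and 66.3, 62.2 and 64.8 in NC. The H libraries were below NC but H replicate 1 overlapped HL, and only H against NC passed (log2 fold change -0.60, SE 0.15, adjusted p = 0.0056 by limma, against 0.142 for HL against H, or 0.00807 without H replicate 1). Acly, the citrate lyase that supplies cytosolic acetyl-CoA, averaged 61.95 ± 0.511 FPKM in HL, 55.4 ± 5.79 in H and 66.5 ± 1.63 in NC (SD, n = 3 each) and was lower in H at an adjusted p alone (log2 fold change -0.27, limma adjusted p = 0.00978, and adjusted p = 0.396 in TPM). Scd1, the paralog of Scd2, had 142, 155 and 149 FPKM in the HL libraries, 82.1, 121 and 90.9 in H and 116, 118 and 113 in NC. H overlapped NC and HL was above both, with -0.26 (SE 0.12, limma adjusted p = 0.0947) in H against NC and 0.62 (SE 0.12, limma adjusted p = 0.00266) in HL against H. Without H replicate 2, the library that overlapped NC, H against NC passed for Scd1 with -0.42 (adjusted p = 0.000346 by limma). Scd1 and Scd2 are similar in sequence, so reads shared between them could make either value uncertain. Summed over the 8 genes, the level was 742, 755 and 747 FPKM in HL, 439, 479 and 407 in H and 726, 737 and 733 in NC.

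**Figure D4:**
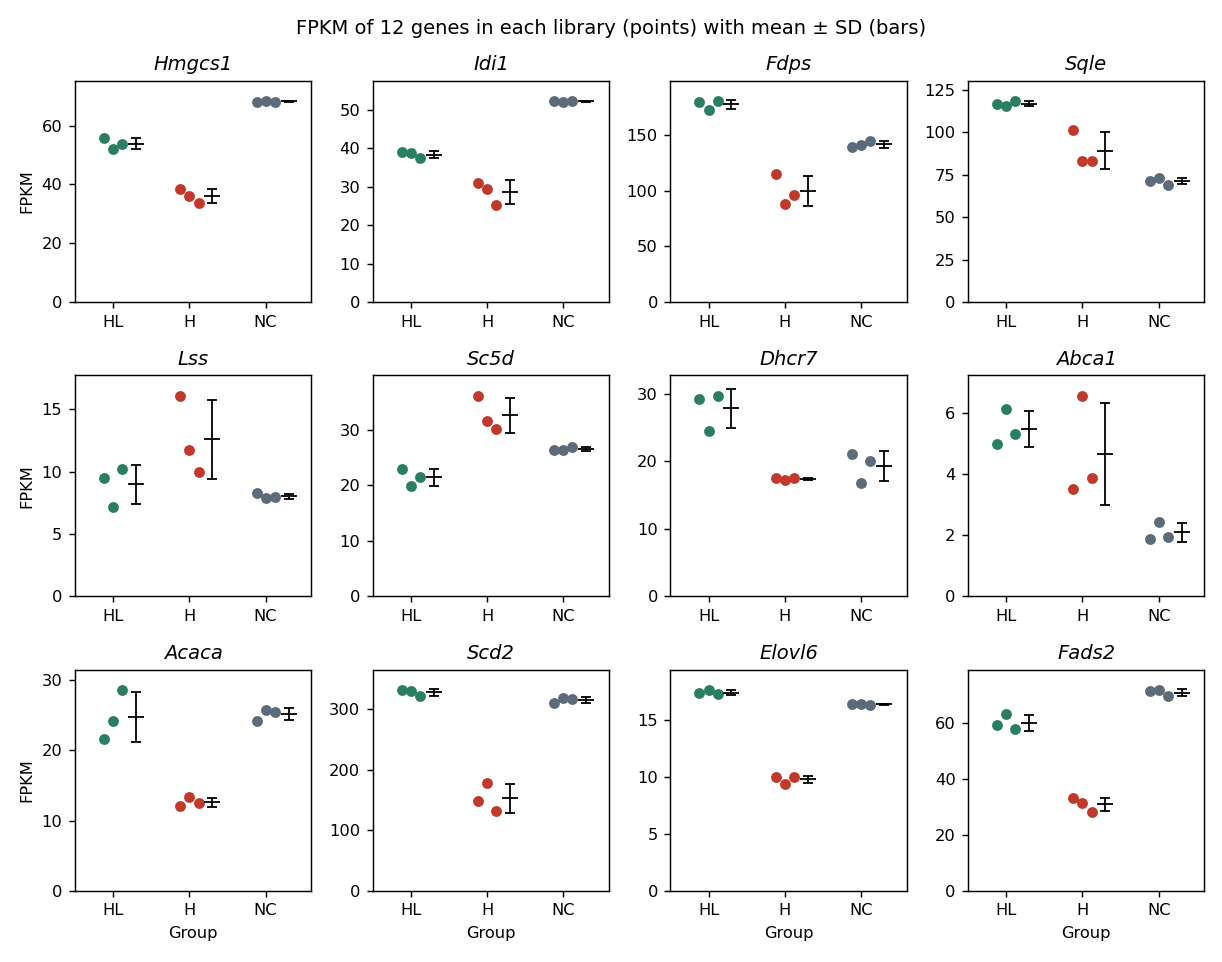
FPKM (vertical axis, from 0) of 12 genes in each library of the HL, H and NC groups (points), with the mean and SD of 3 libraries beside them. Hmgcs1, Idi1 and Fads2 are lowest in H and intermediate in HL, Fdps, Sqle and Dhcr7 are highest in HL, Lss and Sc5d are highest in H, and Scd2 and Elovl6 are at similar levels in HL and NC.

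Genes next to these routes were followed in 8 further lists of 119 genes, of which 109 were tested. Their counts are to be read beside the shares of all tested genes. In H against NC, 27.1% of the tested genes were higher and 33% lower at an adjusted p, and 10.3% rose and 5.75% fell past the fold threshold. In HL against H, 26.7% were higher and 21.7% lower at an adjusted p. Among 16 tested genes of sterol sensing, esterification and efflux, 9 were higher and 4 lower in H against NC at an adjusted p alone, 2 of them rising and 1 falling past the fold threshold. Abcg1, a cholesterol exporter and LXR target like Abca1, had 1.92, 2.36 and 1.86 FPKM in the HL libraries, 11.8, 9.04 and 6.41 in H and 1.57, 1.38 and 1.71 in NC. It rose in H against NC (log2 fold change 2.44, SE 0.21, limma adjusted p = 1.11e-05) and fell in HL against H (log2 fold change -2.06, SE 0.21, limma adjusted p = 7e-05). The other called higher gene, Nr1h3, encodes LXR alpha, was singled out after its values were seen and passed the filter on low values by its HL and H libraries. It had 1.13, 0.979 and 1.80 FPKM in the HL libraries, 3.07, 2.27 and 2.21 in H and 0.875, 0.731 and 0.779 in NC. Ch25h, which makes the SREBP-suppressing 25-hydroxycholesterol, fell in H against NC (log2 fold change -1.66, limma adjusted p = 0.000606) and in HL against NC (log2 fold change -1.14, limma adjusted p = 0.00711). Apoe, an acceptor of exported cholesterol, rose in HL against NC (log2 fold change 1.22, limma adjusted p = 0.00446), averaging 15.0 ± 2.45 FPKM in HL, 13.0 ± 5.22 in H and 6.33 ± 0.232 in NC (SD, n = 3 each). Among 17 genes of SREBP cleavage and sterol-regulated degradation, 3 were higher and 8 lower in H against NC, and 8 were higher and 5 lower in HL against H.

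Among the 9 tested partners of sterol synthesis, 6 were lower and 1 higher in H against NC, and 6 were higher and 3 lower in HL against H. The shares of all tested genes were 33% lower and 27.1% higher in H against NC, and 26.7% higher and 21.7% lower in HL against H. Tmem97, the sigma-2 receptor and a known SREBP target, had 31.8, 31.6 and 29.7 FPKM in the HL libraries, 23.6, 22.0 and 20.6 in H and 59.4, 58.7 and 57.9 in NC, the same order of groups as Hmgcs1. It fell in H against NC (log2 fold change -1.41, SE 0.06, limma adjusted p = 2.52e-07), as did Lbr, the lamin B receptor with sterol reductase activity (log2 fold change -1.19, SE 0.12, limma adjusted p = 3.29e-05). Cyb5a, a cytochrome b5 that donates electrons to desaturases, fell in HL, with 59.5, 66.7 and 64.1 FPKM in the HL libraries, 133, 144 and 129 in H and 139, 132 and 136 in NC (HL against H, log2 fold change -1.09, SE 0.06, limma adjusted p = 3.17e-06). Of 13 genes of the isoprenoid branches, 6 were lower and 2 higher in H against NC, and Pdss1, a prenyl synthase for coenzyme Q, fell (log2 fold change -1.27, limma adjusted p = 6.36e-05). Of 9 tested genes of citrate, NADPH and acetyl-CoA supply, 3 were higher and 2 lower in H against NC, and none was called. Of 16 tested genes of fatty acid elongation and activation, 6 were higher and 5 lower there. Elovl7, an elongase that passed the filter on low values by its HL and H libraries, had 2.64, 2.87 and 2.32 FPKM in the HL libraries, 0.966, 1.11 and 1.22 in H and 0.384, 0.304 and 0.431 in NC, and rose in H against NC (log2 fold change 1.34, limma adjusted p = 0.000361), in HL against H (log2 fold change 1.18, limma adjusted p = 0.00135) and in HL against NC (log2 fold change 2.52, limma adjusted p = 2.4e-05). Acsl6, an acyl-CoA synthetase that passed in the same way, rose in HL against H (log2 fold change 1.21, limma adjusted p = 0.00586) and in HL against NC (log2 fold change 2.14, limma adjusted p = 0.000265), with a mean level of 1.85 FPKM in HL, 0.761 in H and 0.345 in NC.

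In glycerolipid synthesis, 8 of 14 genes were higher and 3 lower in H against NC at an adjusted p alone, where 27.1% of the tested genes were higher and 33% lower. Plin2, the coat protein of lipid droplets, had 407, 383 and 401 FPKM in the HL libraries, 579.8, 428 and 486 in H and 129.9, 133 and 142 in NC. It rose in H against NC (log2 fold change 1.87, SE 0.10, limma adjusted p = 5.56e-07) and in HL against NC (log2 fold change 1.56, SE 0.10, limma adjusted p = 7.71e-06). Lpin2, a phosphatidate phosphatase, rose in H against NC (log2 fold change 1.22, limma adjusted p = 3.88e-06), averaging 28.7 ± 0.785 FPKM in HL, 43.2 ± 5.32 in H and 18.4 ± 0.817 in NC (SD, n = 3 each). Of 15 tested genes of fatty acid oxidation, 3 were higher and 5 lower in H against NC, and the called gene was Ppargc1a, the coactivator PGC-1 alpha, which passed the filter by its HL and H libraries. It had 1.54, 1.80 and 1.61 FPKM in the HL libraries, 3.96, 2.07 and 4.04 in H and 0.176, 0.2002 and 0.214 in NC, with 3.48 (adjusted p = 4.96e-06) in H against NC and 2.56 (adjusted p = 8.66e-05) in HL against NC by limma.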

How the data were processed

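Libraries of enriched mRNA from 9 C2C12 samples (HL, H and NC, 3 each) were analysed from 1 deposited table. The table holds FPKM per gene, a unit the authors chose, and the tool that made the values is uncertain. The name of the deposited table points to salmon, whereas the submitters' processing notes name HISAT2 2.1.0, StringTie 1.3.3b and the mouse build mm39, while the methods name a human genome, and this conflict was not resolved. No read counts were used, so sequencing depth is unknown here and no counting interval is given. The methods state that experiments were independently repeated 3 times or more, and name a design of 3 biological repeats. They do not say this of the sequenced libraries in particular, so whether these came from separate cultures is uncertain. The spread behind each p-value is that of these libraries alone and may be technical.

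Ensembl identifiers were matched to symbols without their version (51482 of 54307). Genes with at least 1 FPKM in at least 3 libraries (13674) were tested on log2(FPKM + 0.1) with limma 3.58.1 (R 4.3.3, trended prior, robust estimation, group means of all 9 libraries in 1 fit), with Benjamini-Hochberg adjustment. The procedure was tested on simulated data in which all groups had the same spread for a gene. In the libraries analysed here the H group was the most spread, a case that the simulated data do not cover. Alternatives were other pseudocounts (1 and 0.01), other filters (none, or a mean FPKM of 5), TPM, median centring, no robust estimation, group variance weights, the compared groups alone, a replicate block and each library left out. The 33 genes and all other lists were chosen with earlier results of these data known. All 33 were named, and from each other list up to 2 called genes per comparison by absolute log2 fold change, with 2 exceptions, a called gene that is not reported here and Nr1h3, which was added after its values were seen. Of the 119 genes of the other lists, 118 were matched. Promoter sequences came from RefSeq on GRCm38.p6, not the build of the deposited table, and were matched by symbol.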

Additional observations from a re-analysis of the deposited data

How the results depend on the processing

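With an adjusted p and no fold threshold, the calls in H against NC numbered 7 higher and 19 lower, in HL against H 20 higher and 1 lower, and in HL against NC 10 higher and 9 lower. The rise of Abca1 was the single higher call in H against NC, and that count was 0 at a pseudocount of 1. A filter on a mean FPKM of 5, under which Abca1 was not tested, gave 0 higher calls in H against NC and in HL against NC, and 2 lower genes at an adjusted p alone in HL against H. Rescaling to TPM left 1 lower call in H against NC, put the genes higher there at an adjusted p alone at 11 (33.3% of the 33, against 38.6% of the tested genes) and those lower in HL against H at 5 (15.2%, against 27.6%), and gave medians of -0.13 in H against NC, 0.21 in HL against H and 0.15 in HL against NC. It also reversed small differences, namely Fdft1 (0.10), Dhcr7 (0.054) and Srebf2 (0.17) in H against NC, Fdft1 (-0.093), Msmo1 (-0.029) and Stard4 (-0.020) in HL against H, and Fdft1 (0.0035), Acaca (0.066) and Fads1 (0.037) in HL against NC.

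With each library left out in turn, called genes ranged over 0 to 1 higher and 1 to 3 lower in H against NC and over 1 to 2 higher in HL against H, where genes lower at an adjusted p alone ranged over 1 to 3 and the median over 0.27 to 0.37. The sign turned within these ranges for Srebf2 in H against NC (-0.086 to 0.0066), Fdft1 (-0.051 to 0.068) and Stard4 (-0.022 to 0.23) in HL against H, and Acaca in HL against NC (-0.14 to 0.065). Several values at an adjusted p alone ended without 1 library, given here with the adjusted p by limma without it. In H against NC they were Mvd (H replicate 2 or 3 or NC replicate 2, 0.0623 to 0.0891) and Srebf1 (H replicate 1 or 3 or NC replicate 1 or 2, up to 0.0762), and Insig1 passed only without H replicate 3. In HL against H they were Mvk (HL replicate 1 or H replicate 3, up to 0.0574), Insig2 (HL replicate 1 or 2, up to 0.0762), Tm7sf2 (HL replicate 3, 0.0556), Pmvk (all libraries of HL and H but H replicate 2, up to 0.0931), Cyp51 (any HL or NC library or H replicate 3, up to 0.117) and Ebp (any but HL replicate 1 and NC replicate 1, up to 0.139). In HL against NC they were Fads2 (HL replicate 3, 0.0529), Msmo1 (HL replicate 1 or 3 or NC replicate 3, up to 0.0641), Cyp51 (any HL or NC library, up to 0.114) and Scd1 (any HL or NC library, up to 0.0923). The causes were not tested.

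Deviations of same-numbered libraries from their group means had correlations of -0.04 to 0.09, and of 0.05 to 0.09 between H and NC. Differently numbered libraries had correlations of -0.07 to 0.06. With 3 libraries per group, these values cannot show whether the numbers pair the samples. With the replicate number as a block, 2 genes were lower at an adjusted p alone in HL against H, and 7 higher and 19 lower in H against NC. Of 626 single-gene values per comparison, 589 kept direction and side of the threshold in H against NC, 562 in HL against H and 581 in HL against NC. Direction could not change in many of these settings, which leave the compared group means as they are. Such settings were the filters, the variance options, the replicate block, the compared groups alone and a library of the third group left out. Without counts, the precision of low genes such as Abca1 cannot be given by depth.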
